A study of Mus musculus with 8 samples.

Results

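The genes described here are 10 interferon-inducible GTPases of mouse Paneth cells (PCs), the granule-filled cells that sit at the bottom of small intestinal crypts. They were given by name: 5 guanylate-binding proteins (GBPs), Gbp2, Gbp3, Gbp6, Gbp7 and Gbp9, and 5 immunity-related GTPases (IRGs), Irgm1, Irgm2, Igtp, Iigp1 and Tgtp1. All 10 were in the deposited table of raw read counts, among 55414 genes. The table covers 8 bulk RNA-seq libraries, 1 per mouse, of PCs sorted from the small intestine by fluorescence-activated cell sorting. In the 4 mice of the water group the drinking water was Milli-Q water, which is purified laboratory water, and in the 4 mice of the zinc group it held 25 mM zinc sulfate (ZnSO4). Both groups drank this water for 7 days. By the labels every mouse of both groups then received an injection of TNF (tumor necrosis factor), a cytokine of inflammation, 3 hours before its cells were taken, although the library labelled zinc replicate 3 was low in TNF target transcripts, as described below. No group went without TNF, so the libraries show levels under TNF and the effect of zinc on them, not the effect of TNF. The methods of the study name C57BL/6J mice, and their age is not stated in the sources used here.

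GBPs and IRGs are GTPases that cells make in response to interferons. They assemble on the membranes around intracellular bacteria and parasites and on the bacteria themselves, where GBPs help to expose bacterial products to inflammasomes. Within the IRGs, Irgm1, Irgm2 and Igtp (also known as Irgm3) are regulators that keep the effector GTPases off the cell's own membranes, while Iigp1 (Irga6) and Tgtp1 (Irgb6) are effectors that load onto pathogen vacuoles. Their genes lie in clusters. Interferon-gamma acts on the gamma-activated site (GAS), and type I and III interferons act through a complex that holds IRF9 on the interferon-stimulated response element (ISRE), which interferon regulatory factors such as IRF1 also bind.

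The promoters of the members are shown because both response elements can be read in them. RefSeq promoters, running from 250 bases before to 50 bases after a transcript start (GRCm38.p6), were read for 7 members. Each was placed at its identical sequence in GRCm39, to which the coordinates refer. Gbp6, Gbp9 and Iigp1 are named only. Their promoters were not searched, so the motif counts below do not cover them. The ISRE core was searched on both strands as 2 copies of GAAA separated by any 2 bases, which read as TTTC on the other strand. The GAS was searched as TTCNNNGAA, which reads the same on both strands. The capitals mark these matches, with 20 bases on each side, each written 5′ to 3′ on the strand of the gene.
Gbp2, chr3:142326345-142326394, plus strand: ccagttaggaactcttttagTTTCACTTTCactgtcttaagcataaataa
Gbp3, chr3:142265740-142265795, plus strand: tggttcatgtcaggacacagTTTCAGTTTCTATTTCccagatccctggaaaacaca
Gbp7, chr3:142235971-142236073, plus strand: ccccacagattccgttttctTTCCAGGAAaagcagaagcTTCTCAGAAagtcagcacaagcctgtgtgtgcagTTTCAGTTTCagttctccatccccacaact
Irgm1, chr11:48762242-48762297, minus strand: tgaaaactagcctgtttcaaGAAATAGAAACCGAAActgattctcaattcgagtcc
Irgm2, chr11:58105708-58105768, plus strand: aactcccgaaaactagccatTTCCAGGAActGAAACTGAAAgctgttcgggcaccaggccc
Igtp, chr11:58090317-58090377, plus strand: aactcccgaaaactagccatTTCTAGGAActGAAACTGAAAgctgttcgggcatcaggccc
Tgtp1, chr11:48883121-48883181, minus strand: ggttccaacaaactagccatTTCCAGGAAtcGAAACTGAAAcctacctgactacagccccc

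The ISRE core was in the promoter of 7 of the 7 genes read, against 3.44% of all 32851 promoters of that length in the table. For Gbp3, which has 2 promoters there, it was in 1 of them. The first match began between 77 bases (Tgtp1) and 30 bases (Irgm1) before the start. In Gbp2, Gbp3 and Gbp7 it read as TTTC along the gene and in the 4 IRGs as GAAA. In Gbp3 and Irgm1 there were 2 overlapping matches that share their middle copy. The GAS was found in 4 of the 7 genes, Gbp7, Irgm2, Igtp and Tgtp1, against 8.3% of all promoters, and Gbp7 held it at 2 places. Both motifs stood in the same promoter for these 4 genes and in 0.454% of all promoters. In Irgm2, Igtp and Tgtp1 the GAS ended 2 bases before the ISRE core, and no GAS match overlapped an ISRE match. Over the 21 bases from the first base of the GAS to the last of the ISRE core, Igtp and Irgm2 were identical at 20, Irgm2 and Tgtp1 at 19 and Igtp and Tgtp1 at 18. Over the 61 bases printed, Igtp and Irgm2 were identical at 59, and Tgtp1 matched them at 39 and 41. A match describes the letters only, and binding was not measured here.

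**Figure D1:**
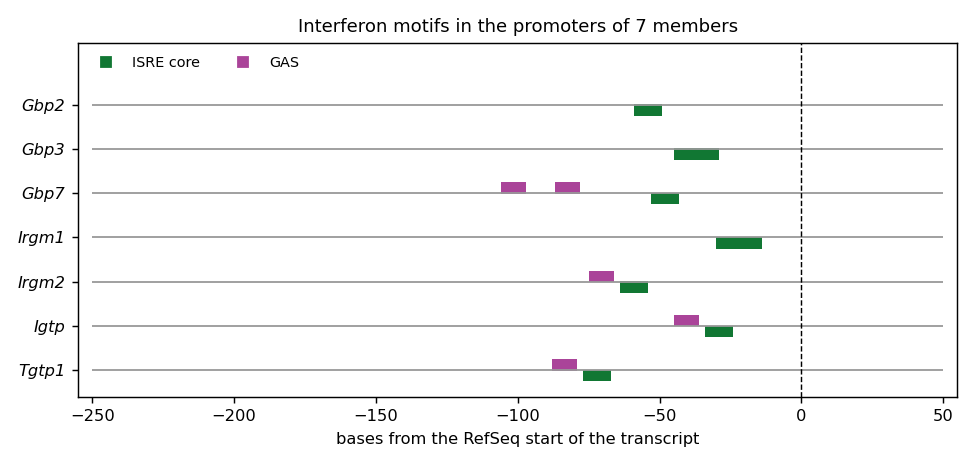
Positions of the ISRE core (green, below the line) and the GAS (purple, above the line) in the promoters of 7 members, in bases from the RefSeq transcript start (dashed line at 0), with the grey line covering the 300 bases searched. All ISRE matches lie within 77 bases of the start, and Irgm2, Igtp and Tgtp1 have a GAS directly before the ISRE core.

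The libraries held 10623658 to 15101627 counts. A gene with 0 counts may have had up to 3, which is 0.179 to 0.369 counts-per-million (CPM, on library sizes scaled by TMM, the trimmed mean of M-values), and such limits cover counting error only. PC markers, among them Lyz1 (lysozyme) and the alpha-defensins Defa24 and Defa30, summed to between 390212 and 733015 CPM in each library, so the markers of the labelled cell type were present at a high level throughout. Markers of leukocytes and stroma summed to 13.3 to 28.9 CPM, nearly all from Lyz2. Of these 23 markers, 11 had 0 counts in all 8 libraries, and among the rest Ptprc (CD45) had 2 counts and Cd3e 1 in all. Zinc replicate 3 (zinc 3) stood apart from the other libraries. Its highest correlation with any of them was 0.903, whereas each of the other 7 libraries had one of 0.970 or higher, and 29.97% of the 10707 genes tested were lowest and 29.8% highest in it. In zinc 3, a list of 17 TNF and NF-kB target genes summed to 120 CPM, against 1703 to 2003 in the other 7 libraries, and 12 enterocyte markers summed to 588 CPM against 95.3 to 199. All 12 enterocyte markers were highest there. Among the targets, Icam1 and Cxcl10 had 0 counts in zinc 3, against 87.1 to 149 and 9.84 to 45.5 CPM in the other libraries, and Tnfaip3 was at 2.46 CPM against 74.6 to 102. Of the 17 targets, 15 were lowest in zinc 3. Tnfaip2 was highest there, at 6.03 CPM against 1.04 to 3.76. Whether this mouse received or responded to TNF as the others did was not tested, so its values may not be those of zinc under TNF. The members are therefore compared with and without this library.

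The highest member per transcript length was Gbp2, at 53.8 ± 15.9 TPM (counts per kilobase of the gene's exons, scaled to the same total in each library; SD, n = 4 water libraries), 67.0% of the summed TPM of the 10 members. The 3 regulators came at 12.2 ± 3.61 TPM (Irgm1), 7.44 ± 2.95 (Irgm2) and 1.504 ± 0.454 (Igtp). Gbp7 stood between them at 3.15 ± 0.813 TPM, and Gbp3 at 1.51 ± 0.399 TPM was level with Igtp. The remaining members were all under 0.5 TPM, with Gbp6 at 0.257 ± 0.136, Iigp1 at 0.153 ± 0.0843, Tgtp1 at 0.137 ± 0.128 and Gbp9 at 0.0577 ± 0.0264. The effector IRGs among the members, Iigp1 and Tgtp1, were thus low in PCs under TNF. Most of the exon sequence of Tgtp1 also occurs in other genes, so its level is uncertain. The regulators Irgm1 and Irgm2 were the members next to Gbp2. Neighbours in this order whose ranges over the water libraries overlapped were Irgm1 and Irgm2, Gbp3 and Igtp, and each neighbouring pair from Gbp6 to Gbp9. With the longest transcript in place of all exons, Igtp came before Gbp3, and the other positions stayed as they were.

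**Figure D2:**
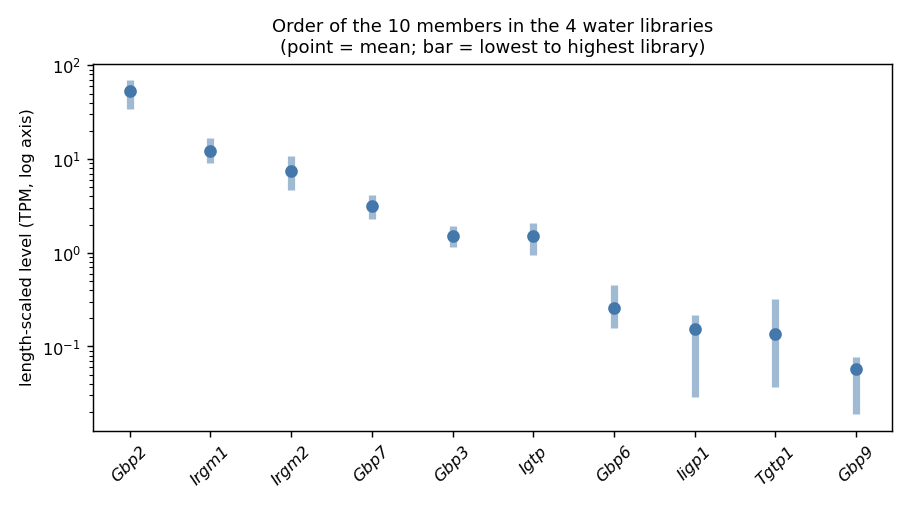
Length-scaled level of each member in TPM (log axis) in the 4 water libraries, with the mean as a point and the lowest to highest library as a bar. Gbp2, at a mean of 53.8 TPM, does not overlap with the next member, Irgm1, at 12.2 TPM, and Gbp6, Iigp1, Tgtp1 and Gbp9 lie under 0.5 TPM.

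With zinc against water, all 10 members had a lower mean with zinc, but none passed the test across the genome in the 8 libraries (adjusted p of 0.05, edgeR quasi-likelihood test), which also called 0% of the 10707 genes tested. Of the 10, 7 passed the expression filter and were tested, and Iigp1, Tgtp1 and Gbp9 were too low. The median log2 fold change of the 7, zinc over water, was -0.73, against 0.01 over all genes tested. In the same fit 0 of the 7 had an unadjusted p under 0.05 in the lower direction, against 3.78% of all genes (405), and 1092 genes passed it in either direction. Without zinc 3 the median of the same 7 was -0.31, against 0.00 over all genes. None was called there either, with 0% of 10755 genes called, while 3 of the same 7, Gbp2, Irgm2 and Igtp, had an unadjusted p under 0.05 in the lower direction, against 3.72% of all genes. Iigp1 also passed the filter there, but only through its water libraries, so that it had to differ, and it is left out of these counts. Fewer cells with a transcript and less of the transcript per cell cannot be told apart in such bulk libraries.

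**Figure D3:**
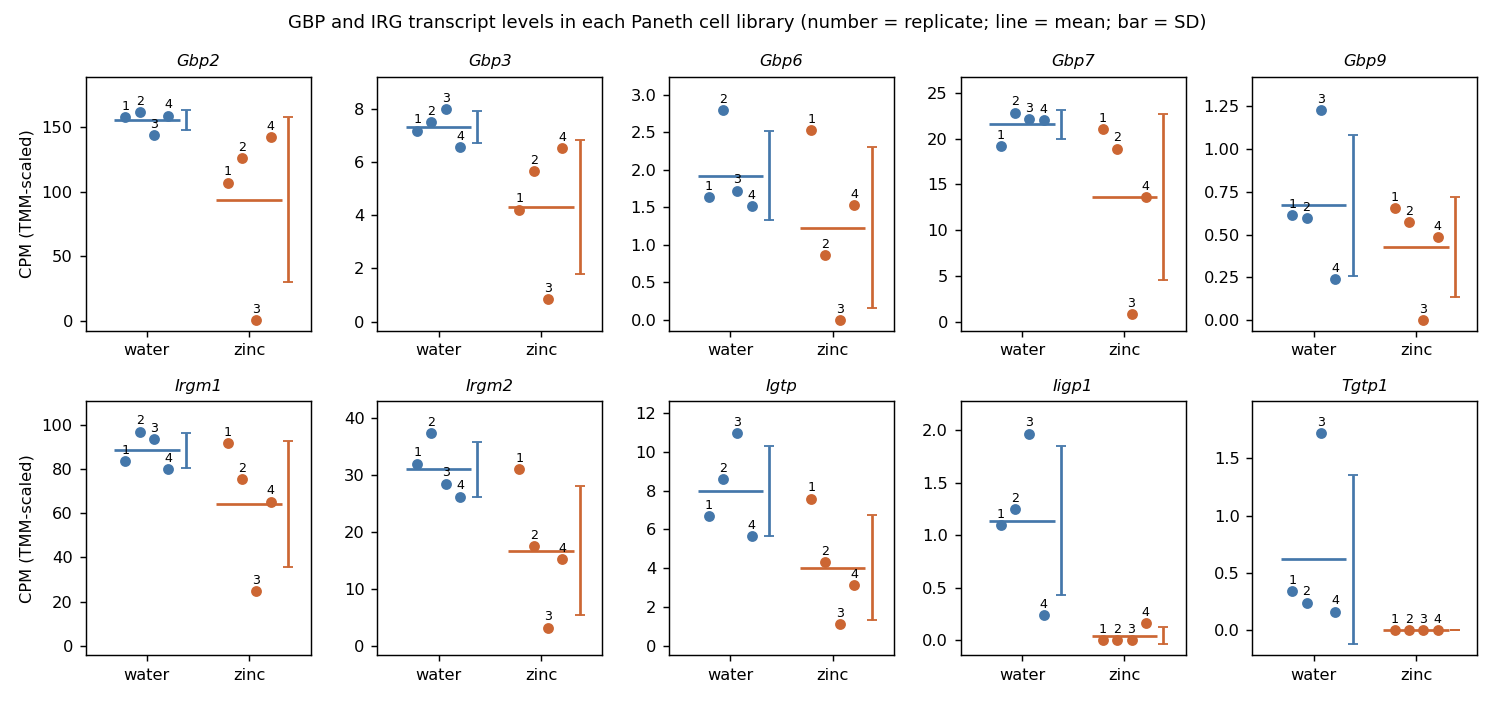
CPM of the 10 members in each library, with water in blue and zinc in orange, the replicate number beside each point, the mean as a line and the SD as a bar (n = 4 each; each panel has its own axis, and the SD bars of Tgtp1 with water and Iigp1 with zinc run below 0). Zinc 3 is the lowest zinc library, or level with others at 0, in every panel. The Gbp2 and Gbp3 panels show no overlap between the groups, which also held for 3.12% of all genes tested in this direction. The Iigp1 and Tgtp1 panels show none either, but both genes were below the filter.

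Gbp2, a GBP that is carried to bacterial and parasite vacuoles, gave the highest counts of the family. It was at 157.8, 161.8, 144.0 and 159.1 CPM in water 1 to 4 and at 107.2, 126.0, 0.702 and 142.3 CPM in zinc 1 to 4. Every zinc library was below every water library, although zinc 4 came within 2 CPM of water 3. Zinc 3 held 10 counts of Gbp2, 205-fold below the median of the other 7 libraries. The log2 fold change was -0.73 (SE 0.856, edgeR adjusted p = 0.730) over all 8 libraries. Without zinc 3 it was -0.31 (SE 0.127, edgeR unadjusted p = 0.0301, adjusted p = 0.595).

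Gbp3 lies in the same cluster on chromosome 3 as Gbp2 and Gbp7. The order is Gbp7, Gbp3 and Gbp2, between positions 142236044 and 142343779 (GRCm39, plus strand), with Gbp2b between Gbp3 and Gbp2 and Gbp5 before Gbp7. Gbp3 was at 7.18, 7.504, 8.0 and 6.56 CPM with water and at 4.22, 5.67, 0.842 and 6.53 CPM with zinc. As with Gbp2, the groups did not overlap, and zinc 4 (6.53) was almost level with water 4 (6.56). The log2 fold change was -0.76 (SE 0.446, edgeR adjusted p = 0.522), and without zinc 3 it was -0.40 (SE 0.204, adjusted p = 0.647). Gbp7, the first of these members, was at 19.2, 22.9, 22.2 and 22.1 CPM with water and at 21.1, 18.9, 0.842 and 13.6 CPM with zinc. Zinc 1 lay within the water range and zinc 4 below it, so here the groups overlapped. Its log2 fold change was -0.67 (SE 0.589, edgeR adjusted p = 0.635) and -0.27 without zinc 3 (SE 0.160, adjusted p = 0.702). Of the words of 75 bases in its exons, 9.97% also occur in other genes on the same strand, nearly all of them in Gm43802, and 3.70% on the opposite strand, in Gm66604. The sources used here do not give the strand setting of the counting, so reads of such antisense genes may be included.

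Gbp6 and Gbp9 lie in the second GBP cluster, on chromosome 5 (positions 105418568 to 105443751 and 105224332 to 105287452, minus strand). Gbp6 was at 1.64, 2.80, 1.72 and 1.52 CPM with water and at 2.53, 0.861, 0 and 1.53 CPM with zinc. The groups overlapped, and the log2 fold change was -0.68 (SE 0.733, edgeR adjusted p = 0.704), or -0.26 without zinc 3. Gbp6 shares 57.2% of its 75-base words with other genes, chiefly Gm43302 and Gbp10, so its count is uncertain, as the sources used here do not say how reads with several matches were counted. The sum of Gbp6 and Gbp10 was 2.71 ± 0.792 CPM with water and with zinc 1.97 ± 1.41 (SD, n = 4 each; exact permutation test, two-sided, p = 0.457, or 0.914 without zinc 3). Gbp9, whose position overlaps those of Gbp4 and Gbp8 on the same strand, had 53 counts over all libraries, at 0.615, 0.596, 1.23 and 0.240 CPM with water and 0.656, 0.574, 0 and 0.484 CPM with zinc. The groups overlapped, and the difference was within the spread (exact permutation test, two-sided, p = 0.4, or 0.771 without zinc 3).

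Irgm1, a regulator of vacuole membranes and of autophagy, was at 83.5, 96.8, 93.4 and 79.8 CPM with water and at 91.7, 75.4, 24.9 and 65.2 CPM with zinc. Its level in zinc 3 was the highest of the members as a share, 29.8% of the median of the other 7 libraries, and the groups overlapped through zinc 1. The log2 fold change was -0.46 (SE 0.315, edgeR adjusted p = 0.564), and -0.19 without zinc 3. Irgm2 was at 31.9, 37.2, 28.4 and 26.1 CPM with water and at 30.9, 17.5, 3.23 and 15.2 CPM with zinc. Only zinc 1 reached the water range. Its log2 fold change was -0.90 (SE 0.471, edgeR adjusted p = 0.502) and, without zinc 3, -0.55 (SE 0.218, edgeR unadjusted p = 0.0259, adjusted p = 0.588). Igtp was at 6.70, 8.58, 11.0 and 5.68 CPM with water and at 7.59, 4.30, 1.12 and 3.15 CPM with zinc. Zinc 1 was again inside the water range and the other 3 zinc libraries below it. Igtp had the most negative log2 fold change of the 7 members tested, -0.99 (SE 0.453, edgeR adjusted p = 0.485), and -0.66 without zinc 3 (SE 0.304, edgeR unadjusted p = 0.0480, adjusted p = 0.613). Irgm1 (48752795 to 48763164, minus strand), Igtp (58089840 to 58098417, plus strand) and Irgm2 (58090444 to 58113615, plus strand) lie on chromosome 11. The last 2 overlap on the same strand, and reads from the shared stretch, 4.21% of the 75-base words of Igtp and 5.58% of those of Irgm2, cannot be told apart. Irgm1 shares 3.80% of its words with Gm74350 on the opposite strand.

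**Figure D4:**
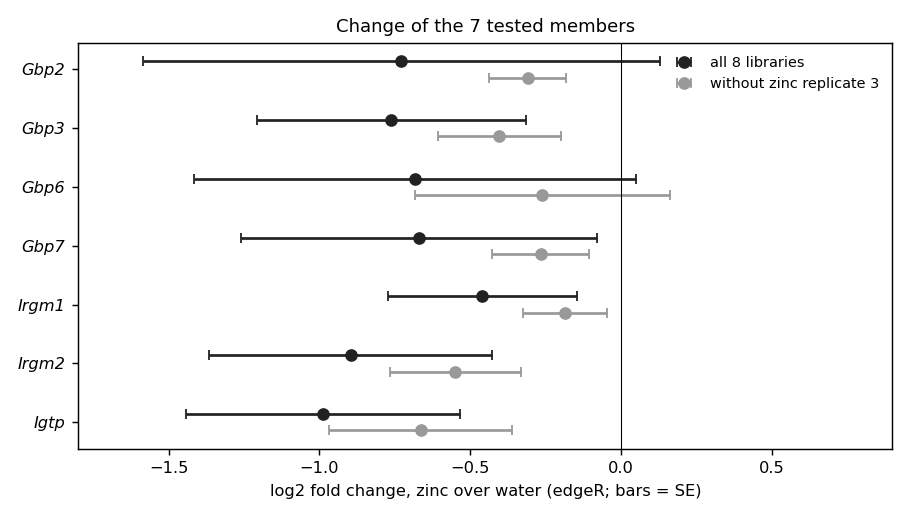
Change of the 7 tested members with zinc relative to water on the log2 scale, with bars for the SE of the edgeR fit, over all 8 libraries (black) and without zinc 3 (grey). All values lie below 0, from -0.99 (Igtp) to -0.46 (Irgm1) in black and from -0.66 to -0.19 in grey, and no adjusted p passes 0.05.

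Iigp1, an effector that coats the vacuoles of parasites and bacteria, was detected in every water library and in 1 zinc library. It had 16, 21, 16 and 3 counts in water 1 to 4 (1.09, 1.25, 1.97 and 0.240 CPM) and 0, 0, 0 and 2 counts in zinc 1 to 4 (zinc 4 at 0.161 CPM). The groups did not overlap, but water 4 with 3 counts stood close to zinc 4 with 2. Pooled over each group, the water libraries held 27.6 times the level of the zinc libraries (95% interval of the counts 7.29 to 233, covering counting error only), and 19.9 times (5.26 to 168) without zinc 3. The two-sided exact permutation p was 0.0286, the smallest that 70 assignments of 4 against 4 can give, and 0.0571 without zinc 3. In the edgeR fit without zinc 3 the log2 fold change was -4.12 (SE 1.00). Iigp1 passed the filter there only through its water libraries, so this value is a description. Iigp1 is on chromosome 18 and shares 0.174% of its 75-base words with another gene.

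Tgtp1, the other effector, had 5, 4, 14 and 2 counts in water 1 to 4 and 0 counts in every zinc library. That is 25 counts against 0, or 8.21-fold lower with zinc if the zinc group is set to 3 counts in all. The 95% interval of the counts, covering counting error only, began at 6.19-fold, and at 4.47-fold without zinc 3. The CPM of Tgtp1 were 0.342, 0.238, 1.72 and 0.160 with water, and water 3 alone held 14 of the 25 counts. The two-sided exact permutation p was 0.0286 with all libraries and 0.114 without zinc 3. Exact p-values are given here for the 3 members below the filter and for 2 sums of near-identical copies, and are unadjusted. The same test was also computed for the other members and listed genes. Of the 75-base words of Tgtp1, 78.7% occur elsewhere, 73.2% in its near-identical neighbour Tgtp2, and its position overlaps that of Gm12185 on the same strand, so reads of these genes may have been dropped or divided. Tgtp2 had counts with zinc, and the sum of both genes was 6, 8, 19 and 3 counts with water and 5, 2, 2 and 0 with zinc. For this sum, 0.866 ± 0.986 CPM with water and with zinc 0.188 ± 0.199 (SD, n = 4 each), the groups overlapped and the exact permutation p was 0.0857, or 0.343 without zinc 3.

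The result for these 2 effectors turned on the filter and the tool. When genes of low count were kept and zinc 3 was left out, an alternative chosen after the data had been seen, edgeR called Iigp1 (adjusted p = 0.00352) and Tgtp1 (adjusted p = 0.0416), among 80 genes called lower of 18228 tested, or 0.439%. With genes of low count kept and all 8 libraries, their edgeR adjusted p was 0.256 and 0.338. DESeq2 gave adjusted p-values of 0.149 and 0.167 for them with all libraries and 0.248 and 0.293 without zinc 3.

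Counted by overlap alone, Gbp2 and Gbp3 were the tested members whose zinc libraries all lay below all water libraries, 2 of 7, against 3.12% of the genes tested. Without zinc 3 it was the same 2 of the 7, against 3.99%. Iigp1 and Tgtp1, below the filter with all 8 libraries, did not overlap between the groups either and are not counted here. Most members were low together in zinc 3. The 10 members summed to 301.5 to 339.7 CPM in the water libraries and to 265.9, 249.2, 31.6 and 248.1 CPM in zinc 1 to 4, so every zinc library was below every water library and zinc 3 far below the other 3. The sums of the 5 GBPs and of the 5 IRGs were carried by Gbp2 and by Irgm1. The GBP sum was 177.1 to 195.6 CPM with water, 135.7 to 164.4 CPM in the other zinc libraries and 2.39 CPM in zinc 3. The IRG sum was 112.0 to 144.1, 83.7 to 130.2 and 29.3 CPM. Gbp2 made up 45.9 to 52.8% of the members' counts in the water libraries and 2.22% in zinc 3. As a share of the median of the other 7 libraries, zinc 3 held 0.487% of Gbp2, 3.99% of Gbp7, 11.4% of Irgm2, 12.8% of Gbp3 and 16.8% of Igtp, and it had 0 counts of Gbp6, Gbp9, Iigp1 and Tgtp1. The TNF and NF-kB target sum and the enterocyte marker sum given above moved in the same library, and their part in the low values was not tested.

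Across the other 7 libraries the tested members followed different orders. Gbp2 and Gbp3 were both lowest in zinc 1, then zinc 2, then zinc 4. For Irgm1, Irgm2, Igtp and Gbp7 it was the reverse, with zinc 1 highest of the 3 and zinc 4 lowest. Gbp6 followed neither order, with 2.53 CPM in zinc 1, 1.53 in zinc 4 and 0.861 in zinc 2. The Pearson correlation of log2 CPM was 0.882 between Gbp2 and Gbp3, and 0.805 to 0.959 among Irgm1, Irgm2, Igtp and Gbp7. Between Gbp2 or Gbp3 and these 4 genes it was 0.244 at most. Gbp6 stood at 0.588 to 0.744 with the 3 IRGs, at 0.383 with Gbp7 and at 0.04 and -0.03 with Gbp2 and Gbp3. Over all 21 pairs of the 7 tested members it ran from -0.03 to 0.959 with a median of 0.383. These values describe 7 points that share their group and library preparation, and the grouping of the genes was made after they were seen. Gbp7 followed the regulators of chromosome 11 although it lies in the cluster of Gbp2 and Gbp3.

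**Figure D5:**
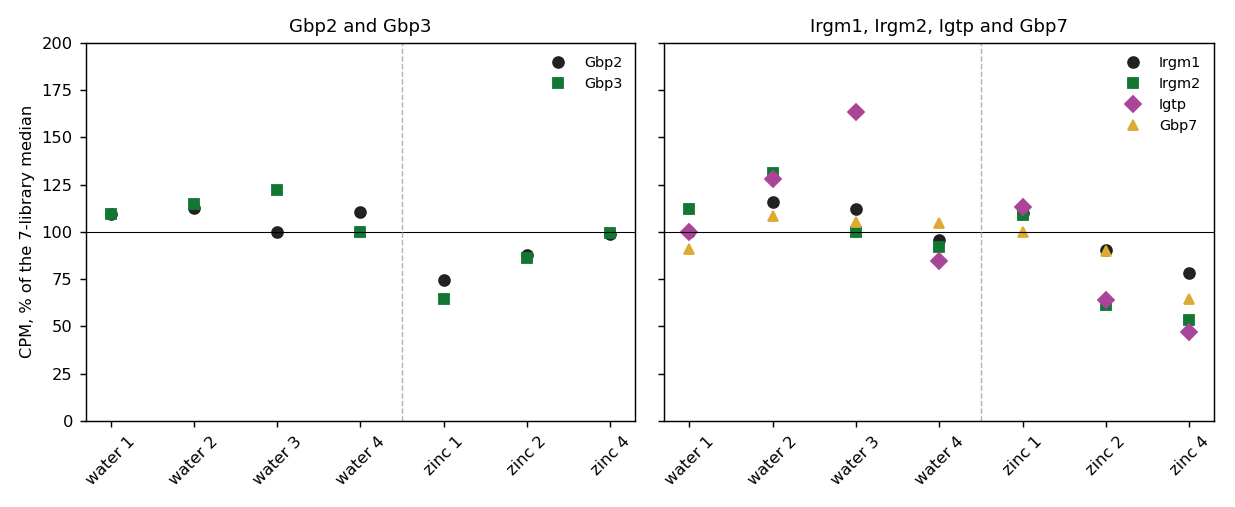
CPM of 6 of the 7 tested members (without Gbp6) as a percentage of each gene's median over the 7 libraries without zinc 3, with Gbp2 and Gbp3 on the left and Irgm1, Irgm2, Igtp and Gbp7 on the right, and a dashed line between water and zinc. Among the zinc libraries, zinc 1 is lowest on the left and highest on the right, where zinc 4 is lowest.

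The 5 tested genes outside the family whose profile was most like the mean standardised profile of the tested members over these 7 libraries were Oasl2 (Pearson r of 0.963), Agmo (0.958), Oasl1 (0.947), Cd47 (0.944) and H2-DMa (0.936). They were picked as the highest among all genes tested over 7 points, so high values follow in part from the choice. With zinc 3 added, Oasl2, Oasl1 and Cd47 were at 0.851, 0.770 and 0.997, but Agmo was at -0.01 and H2-DMa at -0.19. The members themselves ranged from 0.461 (Gbp2) to 0.923 (Irgm2) against this mean, of which each is a part.

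Of 22 other family genes and relatives that were listed, 21 were in the table, 8 had 0 counts in all libraries, 7 were tested and 0 were called. Gbp5, which promotes inflammasome assembly, was the highest other GBP at 21.7 ± 3.55 CPM with water and 12.4 ± 8.48 with zinc (SD, n = 4 each). It had 0 counts in zinc 3, which allows up to 0.211 CPM there. Its log2 fold change was -0.82 (edgeR adjusted p = 0.646), and -0.39 without zinc 3 (edgeR unadjusted p = 0.0323, adjusted p = 0.595). Gm5431, a family gene between Irgm1 and Tgtp1 on chromosome 11, was at 1.68 ± 0.546 CPM with water and 0.532 ± 0.461 with zinc, a log2 fold change of -1.70 (edgeR unadjusted p = 0.0186, adjusted p = 0.485), and of -1.31 without zinc 3. Of the 75-base words of Gm5431, 27.9% also occur in other genes on the same strand, so its count is uncertain. Gm12250 (Irgb10), whose product disrupts bacterial membranes, was at 1.95 ± 1.56 and 0.843 ± 0.698 CPM (log2 fold change -1.19, edgeR adjusted p = 0.512, and -0.91 without zinc 3). The relatives that are not known for interferon induction were measured beside them. Irgq was at 21.8 ± 4.37 and 24.0 ± 7.42 CPM (log2 fold change 0.13), Atl3 (atlastin 3) at 20.01 ± 3.70 and 24.0 ± 1.31 CPM (0.26) and Atl2 at 69.8 ± 6.70 and 51.9 ± 11.0 CPM (-0.43, edgeR unadjusted p = 0.0339, adjusted p = 0.485). Without zinc 3 these 3 log2 fold changes were 0.27, 0.27 and -0.28. In zinc 3, Irgq, Atl3 and Atl2 were at 69.2%, 106% and 58.8% of the median of the other 7 libraries. Gbp2b (Gbp1) had 0 counts in all 8 libraries.

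The genes that carry the interferon signal to these promoters were taken from a list of 20 ligands, receptor chains, kinases and factors. The interferon genes Ifng, Ifnb1, Ifnl2 and Ifnl3 had 0 counts in every library. The other 16 were tested, 15 were lower with zinc and 0 were called, with a median log2 fold change of -0.33, and of -0.18 without zinc 3. Of the receptor chains, Ifngr1 (interferon-gamma receptor) was at 38.8 ± 2.06 CPM with water and 33.8 ± 11.0 with zinc and Ifnar1 (type I receptor) at 44.0 ± 1.49 and 36.8 ± 13.9. Without zinc 3 their log2 fold changes were 0.01 and -0.01. Il10rb, a chain of the type III interferon receptor, and Ifnar2, the second chain of the type I receptor, did not overlap between the groups and are named for that after their values were seen. Il10rb was at 42.9 ± 3.89 and 33.1 ± 2.30 CPM, a log2 fold change of -0.37 (edgeR unadjusted p = 0.0133, adjusted p = 0.485) and of -0.33 without zinc 3. Ifnar2 was at 9.31 ± 0.941 and 7.46 ± 0.865 CPM, a log2 fold change of -0.32 (edgeR adjusted p = 0.492) and of -0.24 without zinc 3.

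Irf1, a factor that binds the ISRE, was at 141.3, 156.0, 169.5 and 155.9 CPM with water and at 110.3, 121.8, 22.9 and 86.0 CPM with zinc. No zinc library reached the water range. Its log2 fold change was -0.87 (SE 0.393, edgeR adjusted p = 0.485), and -0.55 without zinc 3 (edgeR unadjusted p = 0.00186, adjusted p = 0.50). Irf9, the DNA-binding part of the complex of type I and III interferons, had the smallest p of the list at -0.77 (SE 0.229, edgeR unadjusted p = 0.00691, adjusted p = 0.485), and was at -0.56 without zinc 3. It stood at 23.0 ± 2.51 and 13.5 ± 4.20 CPM, also with no overlap between the groups. Tyk2, a receptor kinase, was the 1 tested gene of the list with a higher mean (log2 fold change 0.13, and 0.22 without zinc 3).

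For the genes that load GBPs and IRGs onto vacuoles (the ATG conjugation system, ubiquitin and its adaptors), 16 of 16 were tested, 13 were lower and 3 higher with zinc, and 0 were called. The smallest unadjusted p in the lower direction was that of Tax1bp1, an autophagy adaptor (log2 fold change -0.30, edgeR unadjusted p = 0.0523), and in the higher direction that of Atg7, an enzyme of ATG conjugation (0.41, edgeR unadjusted p = 0.0476, both with an adjusted p of 0.485). Without zinc 3, Tax1bp1 was at -0.26 and Atg7 at 0.21, where its edgeR unadjusted p was 0.12. Zinc 3 alone held Atg7 at 57.8 CPM, against 27.0 to 39.7 CPM in the other libraries. The median log2 fold change of the list was -0.21, and -0.11 without zinc 3. Of 10 genes that act downstream of GBPs in inflammasomes and in nitric oxide or oxidant production, 6 were tested, 5 were lower and 0 were called. Aim2, a sensor of cytosolic DNA, was at 2.81 ± 0.939 CPM with water and 1.07 ± 0.476 with zinc, a log2 fold change of -1.37 (edgeR unadjusted p = 0.00794, adjusted p = 0.485) and of -1.41 without zinc 3. Pycard, the inflammasome adaptor ASC, was at 7.38 ± 2.01 and 12.4 ± 6.81 CPM (0.76, edgeR adjusted p = 0.502), and its log2 fold change was 0.41 without zinc 3, which held 20.4 CPM. The TNF and NF-kB targets numbered 17, of which 16 were tested, 16 had a negative log2 fold change and 0 were called, with a median of -0.46. Without zinc 3, 10 of the 16 were lower and the median was -0.10. Cxcl2, a neutrophil chemokine, had the smallest p (log2 fold change -2.36, edgeR unadjusted p = 0.0143, adjusted p = 0.485), and was at -1.91 without zinc 3.

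Marker lists were read beside the members in the same fit. Each of the 9 tested enterocyte markers, led by Apob (log2 fold change 1.57, edgeR unadjusted p = 0.00359), and each of the 7 tested stem cell markers, led by Axin2 (1.94, edgeR unadjusted p = 0.00469), was higher with zinc, and 0 were called. Without zinc 3 the medians of these lists were 0.00 and 0.62, with Apob at 1.28 and Axin2 at 1.24. Goblet cell markers were 5 lower and 5 higher, led by Spdef (-0.45, edgeR unadjusted p = 0.0356) and Atoh1 (1.23, edgeR unadjusted p = 0.00724), which were at -0.42 and 1.15 without zinc 3. The median of the goblet list was 0.40, and 0.27 without zinc 3. PC markers were 8 lower and 2 higher, led by Mptx2 (-0.83, edgeR unadjusted p = 0.0484) and Dll4 (0.94, edgeR unadjusted p = 0.12). Zinc 3 held Dll4 at 28.2 CPM, against 2.98 to 8.49 CPM in the other libraries. Without it the log2 fold change of Dll4 was 0.01 and that of Mptx2 was -0.81. The sum of the PC markers in zinc 3, 466976 CPM, lay within the range of the other libraries. For Lyz2, the 1 tested marker of leukocytes and stroma, the log2 fold change was -0.07, and 0.09 without zinc 3. The part of these markers in the members' values was not tested.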

How the data were processed

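Per the labels, PCs were sorted from the small intestine, RNA was made into libraries with a stranded mRNA kit, and the submitters' processing notes name FastQC 0.12.0, STAR 2.7.10a, DESeq2 and the mm39 genome. The deposited file is a table by the authors of raw counts, with Ensembl genes as rows and libraries as columns. The counter, its strand setting, the annotation release and the treatment of reads with several matches are not given in the sources used here. Identifiers were matched to GENCODE M39 (GRCm39): 54749 had a symbol and 665 did not, with 0.00443% of the counts. Library totals were 10623658 to 15101627 counts. No 2 libraries agreed within sampling noise (chi-square per degree of freedom of 6.05 or more in 28 pairs).

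Zinc was compared with water on the counts with edgeR 4.0.16 in R 4.3.3 (quasi-likelihood test), with group as the only term, TMM factors, the default expression filter (10 counts in a library of median size, 15 in all) and Benjamini-Hochberg adjustment at 0.05 over all genes tested. The filter kept 10707 genes with 99.9% of the counts, and the biological coefficient of variation was 0.269. SE is the log2 fold change divided by the square root of F. Members below the filter were compared by exact permutation of the difference of mean CPM. Tested on simulated counts for 4 against 4 libraries (10568 genes tested), the fit made 135 calls, 5 of them of unchanged genes. It found 88% of the genes given a log2 change of 2 and 42% of those given 1. The changed genes were drawn at random and no simulated library stood apart as zinc 3 does, so these shares need not hold for the members. Alternatives were DESeq2 1.42.0 size factors, upper-quartile factors, alpha-defensin genes removed, no filter, a stricter filter (1 CPM in 4 libraries and 100 counts), DESeq2, limma-voom with sample weights (limma 3.58.1), a replicate block, each library left out in turn, water replicates 3 and 4 left out together, the longest transcript for TPM, and motifs on 1 strand. Copies of a gene were found as shared words of 75 bases of exon sequence.

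The members and gene lists, and most tests, were chosen with earlier results of these data known. Named were all members, family genes of at least 1 CPM, Irf1, Ifngr1 and Ifnar1, the gene of smallest p in each direction of each list, and the 5 genes of most similar profile. Cd3e, Ptprc, Gbp2b, Icam1, Cxcl10, Tnfaip2, Tnfaip3, Il10rb, Ifnar2 and the interferon genes were named after their values were seen. Protein sequences were not analysed here, and 1 further gene that this rule named is not reported here.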

Additional observations from a re-analysis of the deposited data

Results flagged for a closer look

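Within groups of 4 libraries, the highest or lowest value was flagged where its gap to the nearest other library exceeded Dixon's 95% critical share of the group's range. Of 25 groups searched 4 were flagged, and chance flags about 1 in 20, or 1.25 of 25. That rate is for independent groups without ties, whereas here the sums share the members and some groups hold several values of 0. Gbp6 in water replicate 2 stood at 2.80 CPM, above the other 3 water libraries at 1.52 to 1.72 CPM, in a gene that shares much of its sequence with Gbp10 and Gm43302. Iigp1 in zinc replicate 4 was at 0.161 CPM, from 2 counts, while the other 3 zinc libraries had 0 counts, so any count there would have been flagged. Tgtp1 in water replicate 3 was at 1.72 CPM, from 14 counts, against 0.160 to 0.342 CPM in the other water libraries. The summed level of the 10 members in zinc replicate 3 was 31.6 CPM, against 248.1 to 265.9 CPM in the other zinc libraries, and the report gives the comparisons with and without that library.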

How the results depend on the processing

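The 7 tested members gave 126 values under 18 alternatives each. All 126 kept the direction of lower with zinc, and none passed the threshold. With each library left out in turn, the edgeR fit called 0 genes and 0 members, and the median log2 fold change of the 7 members was lowest without zinc replicate 1 (-0.95) and highest when zinc replicate 3 was left out (-0.31). The other alternatives gave medians of -1.02 to -0.31. The 6 libraries other than water replicates 3 and 4 gave 0 calls and a median of -0.77. The number of genes called was 0 of 10707 with edgeR and 4 of 18720 with DESeq2. DESeq2 without zinc replicate 3 called 11 genes, and edgeR with no filter and without zinc replicate 3 called 176, of which 2 were members, Iigp1 and Tgtp1. The last 2 fits were chosen after the data had been seen, and the cause of the difference was not tested. For Iigp1 and Tgtp1 the exact permutation p of 0.0286 rose to 0.0571 and 0.114 with any 1 zinc library left out and to 0.0667 for both with 6 libraries, which is the smallest p that 2 against 4 libraries can give. With the ISRE core searched on 1 strand only, 1.74% of promoters and 4 of the 7 member genes held it. With the longest transcript in place of all exons, the TPM of Irgm1, Iigp1 and Gbp9 with water became 19.2, 0.284 and 0.0936. Same-numbered libraries had correlations of their deviations from the group means of -0.03 to 0.03, and 0 of 4 were closest to their own number. The labels do not say whether replicate numbers pair the libraries, and these correlations cannot exclude it. A replicate block gave 0 calls and a member median of -1.02. A search for protein motifs was not run. With 3 counts worth up to 0.369 CPM, Gbp9, Iigp1 and Tgtp1 were near the limit of detection.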
